A study of Homo sapiens with 4 samples.

Results

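The 10 genes described here serve glutathione and thioredoxin metabolism and were followed by name through the deposited table of unique molecular identifier (UMI) counts: MGST1, GSTP1, GPX1, GPX4, GCLM, GCLC, NQO1, TXN, TXNRD1 and SRXN1. All 10 were found, each as 1 row, among the 19238 genes of the table. The data are single-cell 3' RNA sequencing of human melanoma cells in culture, from 4 libraries. The metastatic lines were 131/4-5B1 and 131/4-5B2, sublines from brain metastasis by their labels, and 113/6-4L, a subline from lung metastasis, and the parental line was WM239A, which is called poorly metastatic. Each line was 1 library, so none had a replicate. Cell names carried a suffix from 1 to 4 that nothing ties to a line, so the values below describe 4 unlabelled barcode sets, always in the order of sets 1 to 4, and no line is compared with another.

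The sets held 2121, 1779, 2140 and 2133 cells with 71617986, 71915542, 71444474 and 71182648 UMIs in all. Median UMIs per cell were 33556, 41131, 33152.5 and 33390, and the median mitochondrial share was 5.41, 6.73, 7.12 and 6.83%. The table held cells with 3001 to 6999 detected genes and with at most 19.9% mitochondrial UMIs. There were 39 barcodes found in more than 1 set, on 78 cells. All 7 melanocytic markers reached 10 counts per 1000000 UMIs (CPM) in a set and their summed level lay between 6946 and 9872 CPM, whereas the summed immune, epithelial and endothelial markers stayed at or below 1.97 CPM. Of the 4 fibroblast markers in the table only LUM reached 10 CPM (12.7, 2.18, 0.18 and 0.41 CPM), and the part of other cell types in the results was not tested.

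Glutathione is a small thiol that cells use to reduce peroxides and to tag reactive compounds for export. Its synthesis starts with glutamate-cysteine ligase, a pair of a catalytic subunit (GCLC) and a modifier subunit (GCLM). Glutathione peroxidases (GPX1 in the cytosol, GPX4 at membrane lipids, where it restrains ferroptosis) and glutathione transferases (GSTP1 in the cytosol, MGST1 in membranes) spend it. Thioredoxin (TXN) is a small protein that reduces disulfides and is itself reduced by thioredoxin reductase (TXNRD1), while sulfiredoxin (SRXN1) repairs overoxidised peroxiredoxins and NQO1 reduces quinones. Several of these genes, above all NQO1, GCLM, GCLC, TXNRD1 and SRXN1, are known targets of the transcription factor NRF2 (encoded by NFE2L2), which KEAP1 holds low and which binds the antioxidant response element (ARE). GPX1, GPX4 and TXNRD1 encode selenoproteins.

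The 250 bases before the annotated start of each gene were taken from RefSeq (GRCh38.p14) for all 10 genes, in 15 windows since some have several starts. The core ARE letters TGACNNNGC, searched on both strands, were in 10.9% of all 35116 windows of that length, and in 4 windows of 3 of the 10 genes, GSTP1, GCLM and TXNRD1. In GSTP1 the match, which holds an AP-1 motif (TGANTCA, in 6.57% of windows), began 66 bases before the start. Those of TXNRD1, at both of its starts, began at bases 99 and 102 before it, and that of GCLM at base 34. GC boxes (GGGCGG, in 42.6% of windows) and the TATA box letters (TATAAA, in 10.7%) were also searched on both strands. The windows below are shown because NQO1 co-varied between cells with TXN and with GSTP1, and because TXNRD1 and NQO1 differed most between sets after MGST1 among the genes at 10 CPM. They run 5' to 3' on the gene's strand, end at the base before the start, and have the matches to these 4 motifs in capitals.
GSTP1 (chr11:67583562-67583811, plus strand): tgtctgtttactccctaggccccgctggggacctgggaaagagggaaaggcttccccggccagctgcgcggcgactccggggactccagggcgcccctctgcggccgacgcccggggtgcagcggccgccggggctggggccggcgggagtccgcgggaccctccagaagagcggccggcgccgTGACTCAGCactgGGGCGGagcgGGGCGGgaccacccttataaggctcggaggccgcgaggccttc
TXNRD1 (chr12:104286782-104287031, plus strand): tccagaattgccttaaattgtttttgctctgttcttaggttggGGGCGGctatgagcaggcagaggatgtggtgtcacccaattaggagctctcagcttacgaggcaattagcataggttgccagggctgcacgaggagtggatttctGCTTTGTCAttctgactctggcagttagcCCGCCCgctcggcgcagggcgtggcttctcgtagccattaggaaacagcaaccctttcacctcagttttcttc
TXN (chr9:110256508-110256757, minus strand): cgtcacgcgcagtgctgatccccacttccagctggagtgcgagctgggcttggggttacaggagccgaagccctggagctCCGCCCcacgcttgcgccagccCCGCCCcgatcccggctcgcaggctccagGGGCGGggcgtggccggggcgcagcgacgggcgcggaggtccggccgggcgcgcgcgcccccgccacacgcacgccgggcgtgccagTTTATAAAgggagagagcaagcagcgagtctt
NQO1 (chr16:69726561-69726810, minus strand): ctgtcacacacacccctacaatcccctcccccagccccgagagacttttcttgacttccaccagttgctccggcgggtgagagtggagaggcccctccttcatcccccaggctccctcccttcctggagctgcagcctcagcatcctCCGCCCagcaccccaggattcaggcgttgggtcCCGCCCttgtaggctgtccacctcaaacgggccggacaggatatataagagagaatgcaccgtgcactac
No match to the ARE core was found in these windows of TXN and NQO1, which says only that the letters are not within this distance. The windows of TXN had 3 GC boxes and TATA box letters on both strands that overlap, and those of NQO1 had 2 GC boxes.

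MGST1, the membrane-bound transferase, differed more between the sets than any other of the 8 genes that reached 10 CPM. It stood at 404, 155, 125 and 157 CPM, so that set 1 was high and the other sets lay within 1.26-fold of each other. The ratio of set 1 to set 3 was 3.24 (95% exact interval of the counts 3.17 to 3.32), and intervals here and below cover counting error only. GSTP1, the cytosolic pi-class transferase, was nearly level, at 1079, 954, 983 and 983 CPM. Its ratio of set 1 to set 2 was 1.13 (1.12 to 1.14). The other transferases of the list with the highest levels were GSTO1 (773, 1178, 1204 and 1242 CPM), MGST3 (303, 450, 437 and 431 CPM) and GSTK1 (165, 196, 156 and 162 CPM). MGST3 and GSTO1 were lowest in set 1, where MGST1 was highest.

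**Figure D1:**
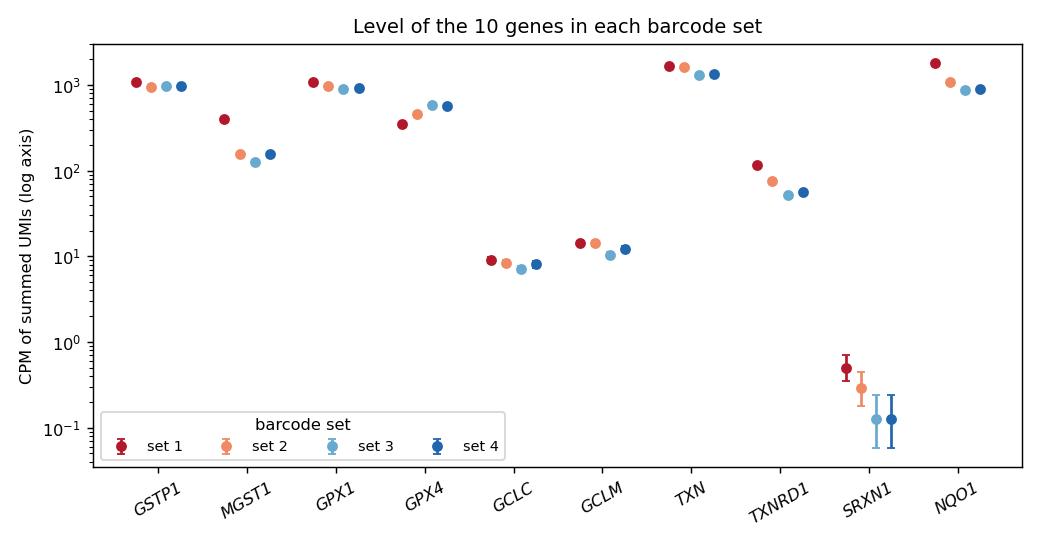
CPM of summed UMIs (log axis) of the 10 genes in barcode sets 1 to 4, 1 point per set, with 95% exact Poisson intervals that cover counting error only and are mostly smaller than the points. MGST1, TXNRD1 and NQO1 are set apart in set 1, GPX4 is lowest there, and SRXN1 lies under 1 CPM in every set.

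The peroxidases moved in opposite directions. GPX1 stood at 1089, 959.8, 891 and 925 CPM, with a ratio of set 1 to set 3 of 1.22 (1.21 to 1.23). GPX4, which reduces lipid peroxides, was the only one of the 10 that was lowest in set 1, at 347, 458, 583 and 571 CPM, and its ratio of set 3 to set 1 was 1.68 (1.65 to 1.70). The UMIs of GPX1 per UMI of GPX4 therefore numbered 3.14, 2.10, 1.53 and 1.62, a ratio that depends on the capture of both transcripts and is read only between sets. GPX8, a peroxidase of the endoplasmic reticulum, was at 86.1, 70.2, 73.5 and 70.5 CPM. Some of these genes have annotated copies. RefSeq names 2 pseudogenes of GPX1, 7 of TXN and 1 each of GSTP1 and SRXN1, none with a row in the table. The sources used here do not say how reads shared with such copies were counted.

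The ligase subunits were scarce and close to even. GCLC stood at 9.01, 8.43, 7.15 and 8.05 CPM, from 645, 606, 511 and 573 UMIs, and GCLM at 14.4, 14.2, 10.5 and 12.3 CPM. Set 1 was above set 3 by 1.26-fold for GCLC (1.12 to 1.42) and by 1.37-fold for GCLM (1.24 to 1.51), but sets 1 and 2 were not apart beyond counting error for either. The UMI ratio of GCLM to GCLC was 1.60, 1.68, 1.47 and 1.52, with overlapping intervals in all 4 sets. Other genes of synthesis and cystine supply spread wider. SLC7A11, the cystine importer of system xc-, had 18.2, 3.25, 7.46 and 2.35 CPM, a 7.74-fold ratio of set 1 to set 4 (6.59 to 9.15). GSR, which regenerates reduced glutathione, stood at 30.3, 17.2, 13.5 and 13.3 CPM, and CBS, of the route from homocysteine to cysteine, at 22.4, 11.5, 15.2 and 9.95 CPM. SLC3A2, the heavy chain that pairs with SLC7A11, was at 234, 139, 189 and 174 CPM, GGCT, which breaks down gamma-glutamyl peptides, at 362, 379.8, 305 and 326 CPM, and GSS, glutathione synthetase, at 58.5, 48.0, 40.4 and 42.4 CPM.

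Thioredoxin itself varied less than its reductase. TXN stood at 1666, 1599, 1292 and 1325 CPM, so sets 1 and 2 lay above sets 3 and 4, and the ratio of set 1 to set 3 was 1.29 (1.28 to 1.30). TXNRD1 stood at 115, 76.7, 52.3 and 55.9 CPM, the same order of sets with wider steps, and the ratio of set 1 to set 3 was 2.19 (2.11 to 2.28). The UMIs of TXN per UMI of TXNRD1 were 14.5, 20.9, 24.7 and 23.7. SRXN1 was at the edge of detection, with 36, 21, 9 and 9 UMIs in whole sets. Its ratio of set 1 to set 3 was 3.99 with an interval from 1.89 to 9.42. Its substrates are the typical 2-Cys peroxiredoxins, PRDX1 to PRDX4. PRDX1 was highest in set 2 (1295, 1882, 922 and 983 CPM), whereas PRDX2 (233, 271, 281 and 279 CPM), PRDX3 (159, 178, 161 and 165 CPM) and PRDX4 (421, 382, 369.7 and 388 CPM), given for that role, spanned less. Of the other peroxiredoxins, PRDX6 (447, 489.7, 389.8 and 418 CPM) was lowest in set 3 and PRDX5 (373, 456, 462 and 450.1 CPM) in set 1. TXNDC17 (482, 509, 408 and 432 CPM), TXN2 of mitochondria (205, 174, 167 and 169.7 CPM) and GLRX3 (139, 177, 149.6 and 160.3 CPM) led the other genes on the list of thioredoxins and glutaredoxins.

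NQO1, the quinone reductase, stood at 1783, 1070.4, 878 and 907 CPM. Set 1 lay 1.67-fold above set 2 (1.65 to 1.68) and 2.03-fold above set 3 (2.01 to 2.05), while set 4 was 1.03-fold above set 3. NFE2L2, which encodes NRF2, was at 142, 94.5, 104 and 97.9 CPM, highest in set 1 by 1.51-fold over set 2 (1.46 to 1.55). KEAP1, its inhibitor, was at 26.3, 29.5, 30.2 and 29.9 CPM, lowest in set 1. Among other NRF2 targets, OSGIN1 stood at 34.1, 12.9, 10.1 and 10.7 CPM. Not every target had this order. FTL (6825, 8991, 6782 and 6642 CPM), of the ferritin light chain, was highest in set 2, FTH1 (7422, 7563, 6762 and 6637 CPM) was nearly level, and TKT, of the pentose phosphate route, stood at 502, 368, 382 and 370.4 CPM.

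Of the 8 genes that reached 10 CPM, 3 (MGST1, TXNRD1 and NQO1) spanned 2-fold or more between their highest and lowest set on log2(CPM + 1), against 5.85% of the 7421 genes tested. All 3 were highest in set 1, as were 206 of the 434 genes tested that spanned 2-fold (47.5%), which make up 2.78% of all genes tested. Their spans were 1.69, 1.12 and 1.02, and NQO1 lay at the edge: with TMM scaling its span was 0.94 and with totals that leave out mitochondrial and ribosomal protein genes it was 0.96, which leaves 2 genes past 2-fold. The median span of the 8 was 0.58, beside 0.33 over all genes tested. Of the 8, 7 were highest in set 1, against 44.9% of the genes tested. That count rests on the scaling for the closest genes, since with TMM scaling TXN and GCLM were no longer highest in set 1. No test was possible with 1 library per set.

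Of 88 further genes on the lists of the pathway, 66 reached 10 CPM, and 5 of these (7.58%) spanned 2-fold, a share near the 5.85% of all genes tested. Set 1 was highest for 33 of the 66, against 44.9% of all genes tested. The 5 were GSR, SLC7A11, CBS and OSGIN1, all highest in set 1, and PRDX1, highest in set 2. In the list of NRF2 targets, members included, 4 of 17 genes spanned 2-fold, all with set 1 on top, and relative to each gene's own median of the 4 sets, the list's median lay 0.37 higher in set 1 on the log2 scale, beside 0.04 for all genes tested. For glutathione synthesis and cystine supply the count was 3 of 8, and the median offset in set 1 was 0.37. Of the other lists, members included, 1 of 10 transferases (MGST1) and 1 of 10 thioredoxins and glutaredoxins (TXNRD1) spanned 2-fold. So did 1 of 6 peroxiredoxins (PRDX1) and 1 of 14 selenoproteins (TXNRD1 again), so these lists added no gene to those named above. None of 4 superoxide dismutases and catalase, of 8 NRF2 regulators or of 3 peroxidases did. Lists this short cannot be set apart from the 5.85% of all genes tested. SOD1 (661, 541, 512 and 532 CPM), SOD2 (39.4, 42.5, 38.3 and 39.1 CPM) and CAT (19.995, 20.8, 21.1 and 21.1 CPM) were among the genes that did not span 2-fold. So were the autophagy adaptor SQSTM1 (482, 399.7, 399.2 and 398 CPM), which binds KEAP1, the small MAF partner MAFG (79.3, 62.3, 66.4 and 67.3 CPM), and the selenoprotein genes listed as C11orf31 (349, 386, 321 and 366 CPM), SEP15 (182, 172, 168 and 170.0 CPM) and SELK (172, 160.0, 143 and 155 CPM).

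Cell by cell, the 10 genes fell into 3 tiers. To set cells on 1 depth, each was thinned to 10000 UMIs, which left out 9 cells with fewer (6, 1, 1 and 1). TXN, NQO1, GSTP1 and GPX1 were then seen in at least 99.58% of cells, rounded, of every set, and GPX4 in 95.04, 98.6, 99.4 and 99.3%. MGST1 was seen in 89.3, 67.3, 57.8 and 65.4% and TXNRD1 in 66.5, 51.9, 38.9 and 41.9%, against 98.4, 94.0, 83.2 and 87.5% and 93.5, 90.3, 76.6 and 79.6% at the deposited depth. GCLM was seen in 13.8, 12.8, 9.16 and 12.01% of thinned cells, GCLC in 9.08, 7.37, 6.87 and 7.79%, and SRXN1 in 0.52, 0.22, 0.094 and 0.047%. For GCLC, GCLM, TXNRD1 and SRXN1 the share of cells at 0 was within 2.20 percentage points of what Poisson sampling around 1 level gives, a measure that shows little for genes this scarce. No cell type known to lack these genes was in the data, so the share that free RNA gives was not measured.

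MGST1 stood apart in its spread. After sampling noise was taken off, its coefficient of variation (CV) between thinned cells was 0.84, 0.81, 1.04 and 0.90. Of the genes of like level (within 1.5-fold), 1.31, 0.85, 0.80 and 0.71% had as high a CV, and their median CV was 0.25, 0.27, 0.27 and 0.25. The cells at 0 numbered 10.7, 32.7, 42.2 and 34.6%, where Poisson sampling around 1 level would give 1.64, 20.7, 29.3 and 20.1%. Thinned counts of MGST1 had a median of 3, 1, 1 and 1 UMI and a 95th percentile of 12, 5, 4 and 5. Cells with 10 or more UMIs made up 9.36% of set 1 (198 cells) and 0.56, 0.51 and 0.70% of sets 2 to 4, so both more cells with MGST1 and more UMIs in the high cells went with the level of set 1. The distributions ran on from 0 with no gap between low and high cells.

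**Figure D2:**
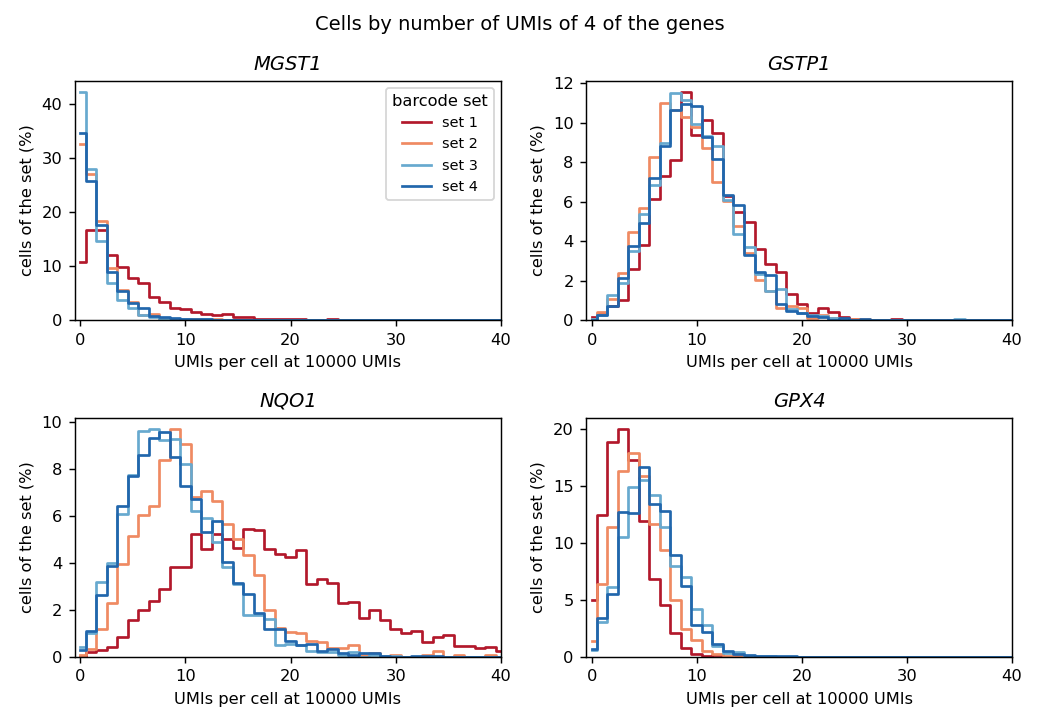
Share of cells of each barcode set (%) by the number of UMIs of MGST1, GSTP1, NQO1 and GPX4 per cell, all cells thinned to 10000 UMIs, with the axis ending at 40. MGST1 piles up at 0 to 2 UMIs in sets 2 to 4 and has a long tail in set 1, NQO1 is shifted upwards as a whole in set 1, GPX4 is shifted downwards there, and GSTP1 overlaps in all 4 sets.

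The abundant genes were more even. The CV was 0.23, 0.24, 0.22 and 0.20 for GSTP1 and 0.24, 0.18, 0.19 and 0.20 for GPX4, near or under the median of genes of like level. NQO1 had 0.43, 0.36, 0.37 and 0.39 and TXN 0.42, 0.32, 0.33 and 0.34, each in the upper 24.1% of genes of like level in every set. The median NQO1 count was 17, 10, 8 and 9 UMIs and the 5th percentile 6, 4, 3 and 3, so the whole distribution of set 1 was shifted rather than a tail added. GPX1 had 0.36, 0.29, 0.32 and 0.30, and 1 cell of set 1 held 76 GPX1 UMIs after thinning, against 51 in the next. TXNRD1 had 0.30, 0.43, 0.55 and 0.053, where the median of genes of like level was 0.30, 0.29, 0.30 and 0.29. GCLM had a CV of 1.31 in set 1, which was 0.65 without 1 cell, and 0.62, 0.44 and 0 in sets 2 to 4. That cell, of 13712 UMIs with 0.71% mitochondrial UMIs, held 12 of GCLM, 31 of OSGIN1, 10 of TXNRD1, 8 of SLC7A11 and 2 of SRXN1. It also held 22 UMIs of ATF3 and 17 of DDIT3, stress transcription factors looked up after the cell was seen. In cells thinned to 20000 UMIs, a depth that cell does not reach, the CV of GCLM was 0.65, 0.72, 0.70 and 0.66. For TXNRD1 it was 0.38, 0.45, 0.59 and 0.28 at that depth. The values of 0 for GCLM and 0.053 for TXNRD1 in set 4 therefore do not show that its cells were uniform.

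Between cells of 1 set, TXN and NQO1 co-varied, and NQO1 and GSTP1 did so less closely. Pearson's r of log counts in thinned cells is given without a p, since cells of a set share 1 library. For TXN with NQO1 it was 0.31, 0.32, 0.29 and 0.30, and for NQO1 with GSTP1 0.24, 0.22, 0.20 and 0.22. With sampling noise taken off the variances, the values became 0.41, 0.50, 0.54 and 0.50 for TXN with NQO1 and 0.41, 0.47, 0.38 and 0.50 for NQO1 with GSTP1. Among the 13861 pairs of the 167 genes at 500 CPM or more in every set, the median r was 0.028 and 95% of pairs lay between -0.14 and 0.24. Of those pairs 0.89% reached the r of TXN with NQO1 and 3.34% that of NQO1 with GSTP1. With the UMIs, mitochondrial share and cycle scores of a cell held constant, the mean r over the sets was 0.26 for TXN with NQO1 and 0.18 for NQO1 with GSTP1. TXN and GSTP1 were only weakly linked (0.094, 0.082, 0.10 and 0.080).

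**Figure D3:**
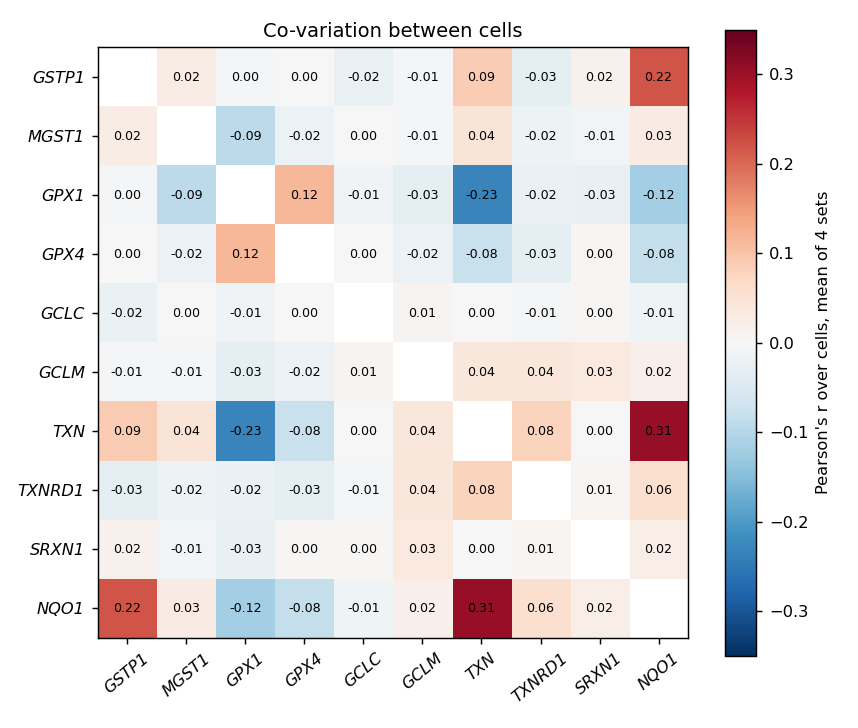
Pearson's r between pairs of the 10 genes over cells thinned to 10000 UMIs, as the mean of 4 barcode sets. TXN with NQO1 and GSTP1 with NQO1 are the highest squares, TXN with GPX1 the lowest, and squares of the scarce genes are near 0.

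GPX1 ran against TXN. Their r was -0.28, -0.18, -0.26 and -0.20, and 0.37% of the pairs of abundant genes were as low. Both genes followed the UMIs of the cell even after thinning, in opposite directions: the r with log UMIs was -0.28, -0.21, -0.32 and -0.27 for TXN and 0.31, 0.31, 0.34 and 0.28 for GPX1. With cell measures held constant the mean r of the pair was -0.14, against -0.23 as counted, and in the middle tertile of cells by UMIs it was -0.094. GPX1 with GPX4 was positive (0.14, 0.061, 0.13 and 0.14), but its mean of 0.12 came to 0.069 with cell measures held constant and to 0.038 in the middle tertile, where set 2 was at -0.037, so that it no longer reached 0.1. The pair of GPX1 with NQO1 was negative (-0.089, -0.098, -0.14 and -0.15). Of the 45 pairs, 3 had a mean r of 0.1 or more, 2 of -0.1 or less, and 40 lay between. TXN with TXNRD1, its own reductase, reached 0.091, 0.058, 0.066 and 0.093, where the low counts of TXNRD1 hold any r down.

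Summed UMIs by quintile of cell depth show the same opposite course. In set 1 TXN stood at 2274, 1792, 1584, 1547 and 1555 CPM from the quintile with the fewest UMIs to that with the most, and GPX1 at 822, 1044, 1131, 1149 and 1122 CPM. The highest quintile over the lowest was 0.68, 0.80, 0.67 and 0.71 for TXN in the 4 sets and 1.36, 1.37, 1.44 and 1.33 for GPX1. GPX4 had 1.11, 1.14, 1.24 and 1.18 and GSTP1 1.07, 1.10, 1.10 and 1.07. NQO1 had 0.92, 0.95, 0.92 and 0.89. Most of the course of TXN and GPX1 lay between the lowest and the middle quintile, where median UMIs per cell ran from 16619 to 33559.5 in set 1. The median UMIs per cell of set 2 were the highest, and the part of cell depth in the differences between sets was not tested.

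**Figure D4:**
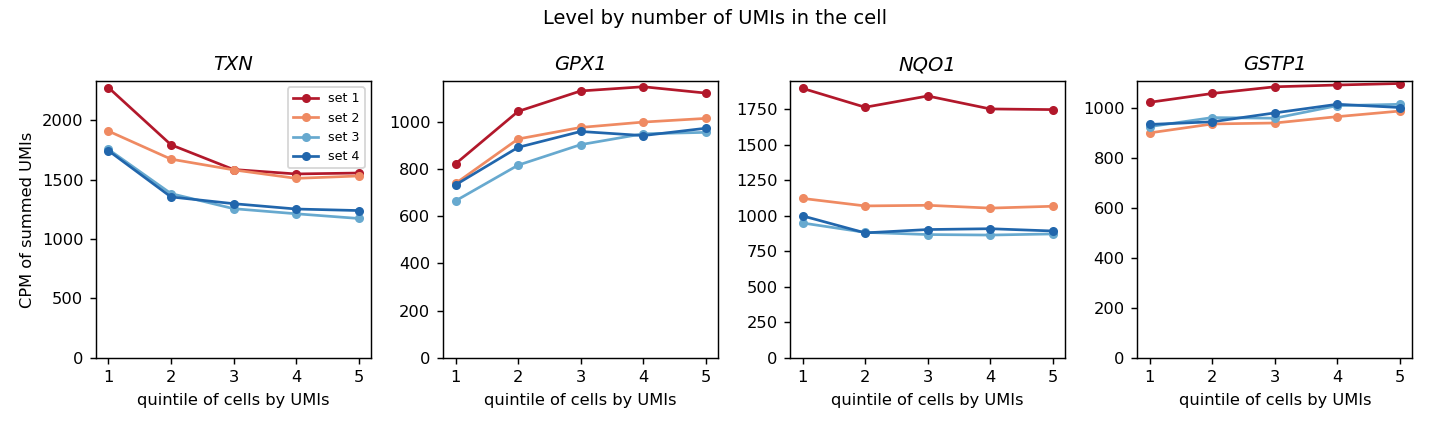
CPM of summed UMIs of TXN, GPX1, NQO1 and GSTP1 by quintile of cells ranked by UMIs within each barcode set. TXN is highest and GPX1 lowest in the quintile with the fewest UMIs in all 4 sets, while the ratio of the end quintiles stays between 0.89 and 1.10 for NQO1 and GSTP1.

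The genes most like each of the 10, among 2153 genes at 50 CPM or more in every set, were ranked by mean r over the sets. Genes of the mitochondrial genome, those for ribosomal proteins and those known only by a clone name did not enter this ranking. TXN was nearest to COX7A2 (0.32) and NDUFA4 (0.31), small subunits of the respiratory chain, and then to NQO1 (0.31). NQO1 was nearest to NPM1 (0.31), a nucleolar chaperone, TXN and CD63 (0.30), a tetraspanin of melanosomes and endosomes. GSTP1 was nearest to PKM (0.25) and ENO1 (0.22), both of glycolysis, and NQO1 (0.22). GPX1 and GPX4 shared their first 2 partners, GAPDH (0.30 and 0.16) and EEF1A1 (0.29 and 0.14), followed by BRI3 (0.27) for GPX1 and GYPC (0.12) for GPX4. MGST1 was nearest to LDHB (0.14), FABP5 (0.13), a fatty acid carrier, and COX6C (0.11), and TXNRD1 to TXN (0.077), FTL (0.061) and NQO1 (0.057). The highest values of GCLC, GCLM and SRXN1 were 0.045, 0.053 and 0.032 and are not read, since they rest on few UMIs. Looked up after these values were seen, the most opposed gene was EEF1A1 (-0.35) for TXN, NPM1 (-0.28) for GPX1 and BRI3 (-0.16) for MGST1.

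Levels differed between called cell cycle phases in both directions, by gene. Phases were called from S and G2M gene lists on thinned cells, which put 788, 499, 639 and 431 cells in G1. GSTP1 stood at 1123, 1102 and 975.1 CPM in G1, S and G2M cells of set 1, and its ratio of G2M to G1 was 0.87, 0.87, 0.89 and 0.87. For NQO1 that ratio was 0.87, 0.91, 0.93 and 0.92, with 1877, 1790.4 and 1635 CPM in G1, S and G2M of set 1. GPX1 was highest in G1 in all 4 sets (G2M over G1 0.90, 0.87, 0.91 and 0.94), and MGST1 was lowest in G1 in all 4 (1.10, 1.21, 1.43 and 1.15). GPX4 was level, with ratios of 1.01, 0.998, 1.02 and 1.05. The MGST1 ratio of S to G1 was 1.06, 1.26, 1.45 and 1.05. GCLM had ratios of G2M to G1 of 1.05, 1.17, 1.29 and 1.34, of which those of sets 3 and 4 (1.06 to 1.58 and 1.09 to 1.66) were past counting error. TXNRD1 had ratios of S to G1 of 1.02, 1.13, 1.08 and 1.28. Within cells called G1, MGST1 stood at 385, 132, 94.3 and 146 CPM, highest in set 1. The part of phase in the differences between sets was not tested further.

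Cells with a larger mitochondrial share had less NQO1. From the lowest to the highest tertile of that share, NQO1 stood at 1984, 1785 and 1511 CPM in set 1 and at 989.9, 915 and 781 CPM in set 4. The ratio of the highest to the lowest tertile was 0.76, 0.83, 0.82 and 0.79 for NQO1, 0.80, 0.73, 0.86 and 0.89 for MGST1 and 0.95, 0.94, 0.95 and 0.93 for GSTP1. TXN was nearly level (1.03, 0.99, 1.01 and 0.97). The r of NQO1 with the mitochondrial share was -0.30, -0.26, -0.23 and -0.27 over thinned cells. Set 1 had both the lowest median mitochondrial share and the highest NQO1 level. Its highest tertile, at a median share of 7.23%, held 1511 CPM of NQO1. The lowest tertiles of sets 2, 3 and 4, at 5.44, 5.86 and 5.65%, held 1155, 949 and 989.9 CPM. The part of the mitochondrial share in the differences between sets was not tested.

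Set 1 was not uniform in MGST1. PAGE5, an X-linked cancer-testis antigen gene, was seen in 820 of 2115 thinned cells of set 1 (38.8%) and in at least 99.9% of cells of the other sets, and set 1 was therefore split by it, a split chosen after values were seen and given without a test. Cells were classed on thinned counts, whereas levels were taken at the deposited depth. There, cells classed as without PAGE5 still held 13.2 CPM of it, against 294 CPM in those with it. MGST1 stood at 308 CPM in cells of set 1 with PAGE5 and at 469 CPM in those without, a ratio of 0.66 (0.64 to 0.67). Of the 7068 genes at 10 CPM in either class, 14 were as far apart, in either direction. Only 1 gene as far apart was counted as lower with PAGE5, the direction of MGST1. PRDX1 ran the other way, at 1484 CPM with PAGE5 and 1168 CPM without, a ratio of 1.27 (1.25 to 1.29). The ratio was 0.89 for GPX1, 0.93 for NQO1, 1.04 and 1.05 for TXN and TXNRD1, and 0.97 each for GSTP1 and GPX4. Among the scarce genes it was 1.15 for GCLM (1.01 to 1.30), and 0.89 for GCLC (0.76 to 1.05) and 0.57 for SRXN1 (0.25 to 1.23, from 10 and 26 UMIs), with intervals that include 1. Median UMIs per cell were 35129 with PAGE5 and 32931 without, and the mitochondrial share 5.47 and 5.36%. Both classes had more MGST1 than the other sets: 1.98, 2.47 and 1.97 times the level of sets 2, 3 and 4 with PAGE5, and 3.02, 3.76 and 2.99 times without.

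**Figure D5:**
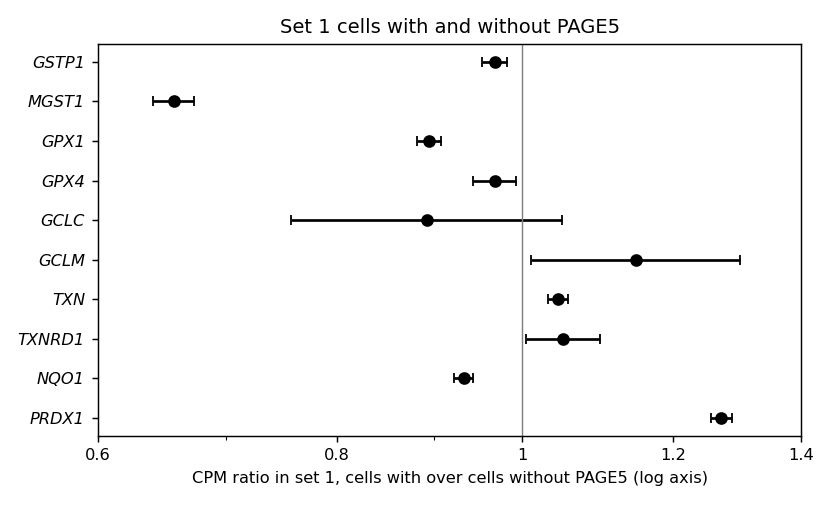
CPM ratio within barcode set 1 of cells with a PAGE5 UMI over cells without (log axis), for 9 of the 10 genes and PRDX1, with 95% exact intervals that cover counting error only. MGST1 lies farthest below 1 and PRDX1 farthest above, with the other genes between 0.89 and 1.15.

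MGST1 and PRDX1 were opposed inside the other sets as well. Thinned cells with an MGST1 UMI held less PRDX1 than cells without in all 4 sets, at 1269.9 CPM in cells with MGST1 and 1496 CPM in cells without it in set 1, and at 1834 and 2065 CPM, 909 and 984 CPM, and 966 and 1042 CPM in the next sets. The ratios were 0.85, 0.89, 0.92 and 0.93. PRDX1 was not alone in this. GPX1 had ratios of 0.98, 0.90, 0.93 and 0.96 in the same split, with 1 inside the interval of set 1 only. The r of MGST1 with GPX1 was -0.019, -0.16, -0.10 and -0.089. OSGIN1 was lower in cells with MGST1 in set 1 (34.3 and 58.0 CPM, ratio 0.59 with interval 0.49 to 0.72, and 0.72 with interval 0.59 to 0.89 without the 1 cell rich in GCLM and OSGIN1 described above) and set 3 (0.72, 0.55 to 0.94), and its ratios in sets 2 and 4, 0.84 and 0.94, had intervals that include 1. NQO1 had no common direction in that split (1.06, 0.95, 1.03 and 1.02), nor had TXNRD1 (1.06, 0.92, 0.91 and 0.96). The r of MGST1 with PRDX1 was between -0.15 and -0.070 in the 4 sets.

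Cells with a GCLM UMI held more PRDX1 in sets 1 to 3 and more of several NRF2 targets in set 1 than cells without. Of thinned cells 292, 228, 196 and 256 had one. TXNRD1 stood at 132 and 110 CPM in cells with and without GCLM in set 1, a ratio of 1.203 (1.08 to 1.34), and the ratios in sets 2 to 4, 1.14, 1.15 and 1.04, had intervals that include 1. OSGIN1 had ratios of 1.47, 1.25, 1.28 and 1.19, of which only that of set 1 (1.22 to 1.76) was past counting error. SLC7A11 was at 27.4 and 17.9 CPM in set 1 (1.53, 1.18 to 1.96). Without the 1 cell rich in GCLM these ratios of set 1 were 1.19 for TXNRD1 (1.06 to 1.32), 1.23 for OSGIN1 (1.01 to 1.497) and 1.38 for SLC7A11 (1.05 to 1.79). ME1, a malic enzyme, had a ratio of 1.37 in set 1 (1.11 to 1.68), and 1.23, 1.39 and 0.99 in sets 2 to 4 with intervals that include 1. For NQO1 the ratios were 1.06 (1.03 to 1.09), 1.04, 1.03 and 1.03, and only the interval of set 1 left out 1. GSR had 1.23, 0.99, 1.09 and 0.77, with 1 inside every interval. PRDX1 had ratios of 1.07, 1.14 (1.10 to 1.17), 1.24 (1.18 to 1.29) and 1.01, and only in set 4 did the interval include 1. TXN had ratios of 1.07, 1.03, 1.08 and 1.04, with 1 inside the interval of set 2, and GSTP1 was level (0.996, 1.001, 1.01 and 0.98). GCLC, the partner subunit, had ratios of 0.97, 0.84, 0.998 and 1.32 from 27, 15, 14 and 26 UMIs in cells with GCLM, so no joint presence of the subunits was detectable at this depth.

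Cells under 2% mitochondrial UMIs were few, 8, 24, 3 and 6, with median UMIs of 14265.5, 13503, 16128 and 14229.5. In them NQO1 was 1.57, 2.17 and 1.56 times the level of the remaining cells of sets 2, 3 and 4 (intervals 1.45 to 1.69, 1.79 to 2.61 and 1.29 to 1.87) and 1.04 times in set 1. TXNRD1 had ratios of 1.94, 1.47, 2.90 and 1.27, with the interval of set 4, which rests on 6 UMIs, including 1. In set 1, the cell rich in GCLM held 10 of the 29 TXNRD1 UMIs of these cells, and without it the ratio was 1.42 with an interval that includes 1 (0.85 to 2.22). For MGST1 the ratios were 0.68, 0.93, 1.08 and 0.75. These cells also lie among the shallowest, and the part of depth was not tested.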

How the data were processed

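The deposited table holds raw UMI counts per gene and cell, not normalized. The builds hg19 and mm10 and the tools Seurat 3.0 and Cell Ranger 3.0.0 are named in the submitters' processing notes. A second deposited table of log values was not used. The genes and lists were chosen with earlier results of these data known, and 1 gene of the list of NRF2 targets is not reported here and not counted in it. Counts were summed per barcode set and divided by the set's total, as CPM. Shares, spread and correlations used cells thinned to 10000 UMIs (scanpy 1.11.5, numpy 2.4.6, seed 20). Doublets were not called, and leaving out the 5% of cells with most UMIs in each set is an alternative. Intervals are 95% exact Poisson or binomial ones and cover counting error only, since UMIs of 1 library carry no replicate error. Genes were named by a fixed rule, with exceptions. It took the 10 genes, NFE2L2, KEAP1, PRDX1 and the 3 genes most like each of the 10. It also took listed pathway genes that spanned 2-fold or had the 3 highest levels of their list. Outside the rule were ME1, LUM as a marker, and PRDX2 to PRDX4 for their role. So were PAGE5, ATF3, DDIT3, CTH, CHAC1 and the most opposed genes, which were picked after values were seen. TMM factors came from edgeR 4.0.16. The 2-fold span, the interval of a ratio, and the CV and r with sampling noise taken off were tested on simulated counts. The other steps were not. The labels fix no group for a suffix, so no test between lines was run.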

Additional observations from a re-analysis of the deposited data

Results flagged for a closer look

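MGST1 was flagged because 1 of the 4 barcode sets stood far from the others: with 404, 155, 125 and 157 CPM in sets 1 to 4, the gap between set 1 and its nearest neighbour made up 0.886 of the distance between highest and lowest, more than Dixon's 95% critical value for 4 values allows. Chance flags about 1 in 20 such groups, and 10 genes were looked at. The gap was 0.788 of the range for NQO1 and 0.764 for GSTP1, neither of which was past that value. The 4 sets are unlabelled libraries and not replicates of a group, so the flag describes them only.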

How the results depend on the processing

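No paired analysis was possible because no replicate numbers are shared and no barcode set is tied to a line. The count of genes spanning 2-fold was 3 or 2 under every alternative, and that of genes seen in at least 90% of cells of every set did not change. The log2 ratio of set 1 to set 3 moved with TMM scaling to 1.61 for MGST1, 1.05 for TXNRD1 and 0.94 for NQO1, with totals without mitochondrial and ribosomal protein genes to 1.64, 1.07 and 0.96, and in G1 cells alone to 2.03, 1.23 and 1.07. For GPX4, set 3 to set 1 gave 0.83 with TMM scaling and 0.81 with the reduced totals. The reduced totals raise the median of all genes by 0.47 to 0.53 on the log2 scale in every set. MGST1 gave 1.31 from only the cells of set 1 with PAGE5 and 1.91 from those without, a split added after seeing the data, as were the partial correlation, the middle tertile, leaving out a set and leaving out 1 cell rich in GCLM. The mean r of TXN with NQO1, of NQO1 with GSTP1 and of TXN with GPX1 was 0.43, 0.33 and -0.32 at the deposited depth. At 20000 UMIs it was 0.38 and 0.28 for the first 2 pairs, with Spearman ranks 0.29 and 0.19, in cells under 10% mitochondrial UMIs 0.27 and 0.17, in the middle tertile 0.28 and 0.20, and as a partial correlation 0.26 and 0.18. TXN with GPX1 gave -0.14 as a partial correlation and -0.094 in the middle tertile. GPX1 in cells of set 1 with over without GCLM, past counting error at 0.95, was 1.01 in G1 cells. Weaker values also changed sides: 46 of 522 correlations (of 17 pairs, none over 0.029 in size as reported), 31 of 164 ratios of cells with over without a gene, and 3 of 36 phase ratios. GPX1 with GPX4 gave 0.069 as a partial correlation and 0.038 in the middle tertile. OSGIN1 in cells of set 1 with over without MGST1 gave 0.72 without the cell richest in GCLM. Scarce genes (GCLC, GCLM, SRXN1) limit what correlations can show, 1 library per line allows no error between cultures, and the causes of these shifts were not tested.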

Other observations

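The 4 genes SLC7A11, CBS, CTH and CHAC1, of the list for glutathione synthesis and cystine supply, singled out after their values were seen, had set 3 as their next highest after set 1, where NQO1 and TXNRD1 had set 2. Set 1 was highest for 10 of the 12 measured genes of that list. Of these, 5 had set 3 next, SLC3A2 being the fifth, and 5 had set 2 next. Among the 8 genes of the list at 10 CPM in a set, 7 were highest in set 1, against 44.9% of all genes tested. Which set came next was not counted over all genes. SLC7A11 stood at 18.2, 3.25, 7.46 and 2.35 CPM in sets 1 to 4, CBS at 22.4, 11.5, 15.2 and 9.95 CPM, and CTH, which makes cysteine from cystathionine, at 9.62, 3.28, 7.52 and 4.59 CPM. CHAC1, which degrades glutathione and is known as a stress-induced gene, stood at 5.89, 0.47, 3.28 and 0.28 CPM. CTH and CHAC1 stayed under 10 CPM in every set.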
